A study of Mus musculus with 6 samples.

Results

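The genes described here are the extracellular and membrane members of the Wnt pathway in the mouse ovary. They were taken by a rule on gene symbols, chosen with earlier results of these data known. The rule takes every gene whose symbol begins with Wnt, Fzd, Sfrp, Dkk or Rspo and a number. It adds Wif1, Lgr4, Lgr5, Lgr6, Lrp5, Lrp6, Znrf3, Rnf43, Axin2 and Notum, and leaves out Wnt10a and Wnt10b. The rule found 49 of the 19423 genes in the deposited table. RNA came from ovaries of balb/c-nude mice, a strain that accepts human tumor cells, and was sequenced in 6 libraries, all of day 80. In 3 control libraries the labels name no injection. The 3 tumor libraries are from mice injected under the skin with a cancer cell line spelled MBA-MD-231, although the treatment label reads MBA-MD-232 for tumor replicate 2 and MBA-MD-233 for tumor replicate 3. The labels give neither age nor stage of the estrous cycle, nor whether each library is 1 animal, so the p-values measure the spread between these libraries.

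Wnt ligands are secreted lipid-modified proteins that bind Frizzled receptors together with the co-receptors LRP5 and LRP6, which leads to stabilization of beta-catenin. Secreted inhibitors act at several points: SFRP proteins and WIF1 bind the ligands, DKK proteins bind LRP5 and LRP6, and NOTUM removes the lipid from the ligand. ZNRF3 and RNF43 are ubiquitin ligases that clear Frizzled from the membrane, and R-spondins, through the LGR receptors, remove these ligases. In the ovary, Wnt4 and Rspo1 are known for their part in female gonad development, and Fzd1, Fzd4, Sfrp4 and Wnt4 are known in follicles and corpora lutea, the glands that form after ovulation.

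Of the 49 genes, 38 had enough counts to be tested and 11 did not. Among the 38, 3 were higher in tumor (Rspo2, Lrp6 and Fzd3) and 4 were lower (Sfrp4, Sfrp2, Fzd1 and Wnt4) at an adjusted p under 0.05 with edgeR, and 31 did not pass. These 7 genes are 18.4% of those tested, beside 7.71% of all 15787 genes tested. By direction, 3.80% of all tested genes were higher and 3.91% lower. The tumor and control libraries did not overlap in 11 of the 38 genes, or 28.9%, beside 38.1% of all tested genes; by direction, 19.8% of all tested genes lay wholly higher and 18.4% wholly lower in tumor. Of the 11 genes 6 were higher (also Fzd7, Fzd4 and Znrf3) and 5 lower (also Wnt5a). The median log2 fold change of the 38 was -0.07, beside -0.02 over all tested genes, and the median absolute log2 fold change was 0.36 beside 0.29.

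**Figure D1:**
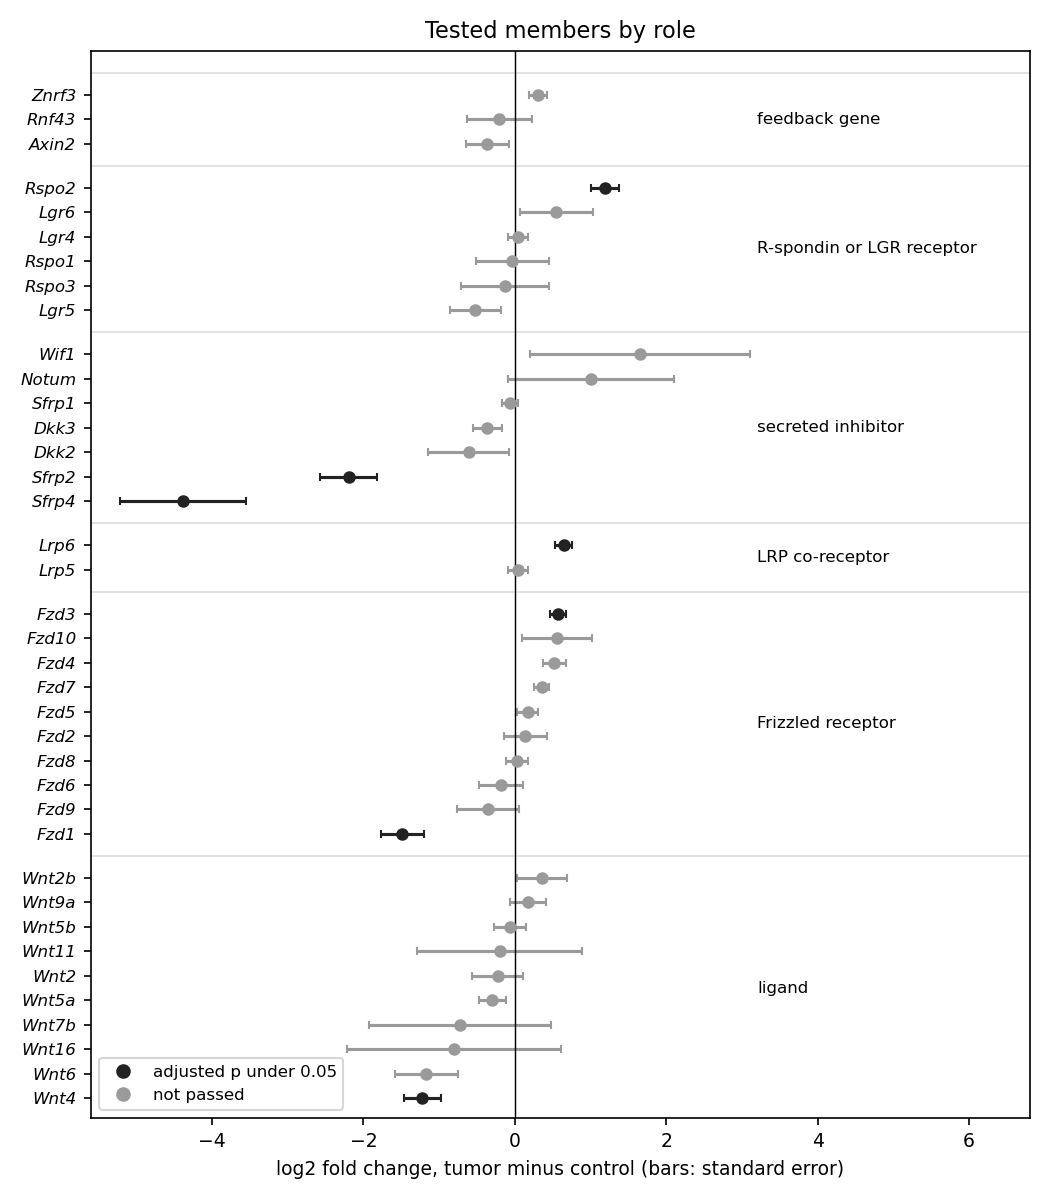
Log2 fold change of tumor minus control (x axis) for the 38 tested genes, grouped by role (y axis), with bars of 1 standard error; black points had an adjusted p under 0.05 and grey points did not. Sfrp4 and Sfrp2 lie farthest to the left, and Rspo2 lies at 1.19; Wif1 and Notum lie to the right with bars longer than 1.

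All 7 calls depended on 4 single libraries, as did nearly all other calls. Without control replicate 1, control replicate 3, tumor replicate 2 or tumor replicate 3, none of the 7 passed, with adjusted p between 0.0821 and 0.159, while between 0.00% and 0.0312% of all genes passed; each of the 7 kept its direction and an unadjusted p under 0.05. Without tumor replicate 2 the share was 0.0187%. Without control replicate 2, where 14.2% of all genes passed, or without tumor replicate 1, with 16.3%, all 7 passed. All 7 also passed with DESeq2 size factors in edgeR (7.08% of all genes), with DESeq2 itself (19.4%) and with limma on log2(FPKM + 1) or log2(FPKM + 0.1) (8.50% and 8.46%). Without a filter on low counts 6 did (4.94%), and with a replicate block none did (0.00%, or 0.0317% with a gene length offset as well). In the authors' deposited table, made with DESeq2, 9 of the 49 genes had a q under 0.05, the same 7 and Fzd4 and Wnt6, beside 14.7% of all genes with a q.

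Library totals lay between 18278614 and 19238900 estimated counts. On the first principal component tumor replicate 1, at -34.6, lay among the controls, at -42.8, -42.1 and -5.2, while the other tumor libraries stood at 49.6 and 75.1. Along the second component it was the one library far from the rest, at -66.5 beside -6.2 to 39.8. The ovarian marker lists were expressed in every library, with summed levels of 330.6 to 655.8 CPM (TMM-scaled counts over the library total) for 8 growing oocyte genes and 2839 to 4863.7 CPM for 8 granulosa genes. Other lists differed among libraries of 1 group. The 7 oviduct markers summed to 2073.8, 1994.2 and 435.4 CPM in control replicates 1, 2 and 3 and to 1827.9, 115 and 30.5 CPM in tumor replicates 1, 2 and 3. The 5 theca markers summed to 240.9, 2894.9 and 240.7 CPM in control and to 312.3, 1928.4 and 2725.7 CPM in tumor, in the same order. The 8 luteal markers summed to between 14911.7 and 16272.8 CPM in control and to 2740.4, 8668.1 and 9326.1 CPM in tumor.

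Deposited FPKM values, which are scaled per gene length, allow levels to be compared between genes. In control ovaries Wnt4 was the highest of the 17 ligands at 47.5 ± 14.0 FPKM (SD, n = 3), followed by Wnt6 at 37.6 ± 15.8 and Wnt5a at 19.6 ± 1.16. The spreads of the first 2 overlapped, but Wnt4 exceeded Wnt6 within each control library. Wnt4 was at 51.2, 32.1 and 59.2 FPKM and Wnt6 at 45.1, 19.5 and 48.3 FPKM in control replicates 1, 2 and 3. Wnt11, Wnt16, Wnt2b, Wnt7b, Wnt5b and Wnt9a had control means between 2.06 and 5.72 FPKM, and the other 8 ligands had at most 0.347 FPKM. In tumor ovaries Wnt4 stood at 21.3 ± 2.43, Wnt6 at 17.5 ± 5.38 and Wnt5a at 16.9 ± 3.55 FPKM, and neighbours in that order did not differ beyond their spread. The summed level of the 17 ligands was 128.1 ± 22.9 FPKM in control and 78.0 ± 8.82 in tumor.

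Wnt4, the ligand of female gonad development, fell in tumor ovaries. It was measured at 201.1, 121.7 and 229.0 CPM in control replicates 1, 2 and 3 and at 67.1, 87.0 and 82.0 CPM in tumor replicates 1, 2 and 3. The groups did not overlap, and control replicate 2 was the control library nearest to tumor. The log2 fold change of -1.22 ± 0.25 (SE) had an adjusted p of 0.0424, a level 2.34-fold lower. Wnt6, a ligand of epithelia, also had its lowest control value in replicate 2 but did not pass. It was at 94.1, 39.4 and 99.6 CPM in control and 25.1, 31.3 and 47.4 CPM in tumor, with a log2 fold change of -1.17 ± 0.41 and an adjusted p of 0.122. Tumor replicate 3 exceeded control replicate 2 there. Without control replicate 2, where 14.2% of all genes passed, the adjusted p of Wnt6 was 0.0358, with a log2 fold change of -1.45. With any other single library left out Wnt6 did not pass, with an adjusted p of up to 0.321.

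Wnt5a, the main ligand of the branch that does not use beta-catenin, was at 107.9, 116.1 and 116.9 CPM in control and 67.6, 105.8 and 103.8 CPM in tumor. All tumor libraries were below all control libraries, but the log2 fold change of -0.30 ± 0.18 had an adjusted p of 0.300. Most of that difference was in tumor replicate 1, and without it the log2 fold change was -0.12. In bulk tissue, fewer cells that make a transcript and less transcript per cell cannot be told apart, here and in all results that follow.

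Among the other tested ligands, Wnt2b, Wnt5b, Wnt9a and Wnt2 had log2 fold changes between -0.23 and 0.36 with adjusted p of at least 0.499. The ligands Wnt1, Wnt3, Wnt3a, Wnt7a, Wnt8a, Wnt8b and Wnt9b were not tested. Wnt1, Wnt3a and Wnt8b had at most 2 estimated counts in any library, under the limit of 3 that a count of 0 allows, which is 0.156 to 0.164 CPM here. Wnt8a and Wnt9b had at most 8 and 9. Wnt3 and Wnt7a reached 17 and 55 counts in tumor replicate 1 and at most 4 and 11 elsewhere.

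All 10 Frizzled genes were tested. Fzd1 fell, Fzd3 rose and 8 did not pass, of which Fzd4 and Fzd7 had all tumor libraries above all control libraries. The summed level of the 10 receptors was 73.3 ± 2.38 FPKM in control and 68.9 ± 3.16 in tumor, while its make-up differed. Fzd1 gave 34.4%, 19.02% and 36.8% of the summed FPKM in control replicates 1, 2 and 3 and 13.4%, 11.2% and 11.7% in tumor. Fzd7 gave 11.5% ± 1.05 in control and 16.3% ± 0.547 in tumor, and Fzd3 gave 4.61% ± 0.574 and 7.60% ± 0.799. Fzd1 and Fzd2 were the most abundant in control, at 22.2 ± 7.60 and 17.5 ± 3.04 FPKM, and did not differ there beyond their spread; in tumor Fzd2 was at 19.98 ± 6.68 and Fzd1 at 8.32 ± 0.630 FPKM.

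**Figure D2:**
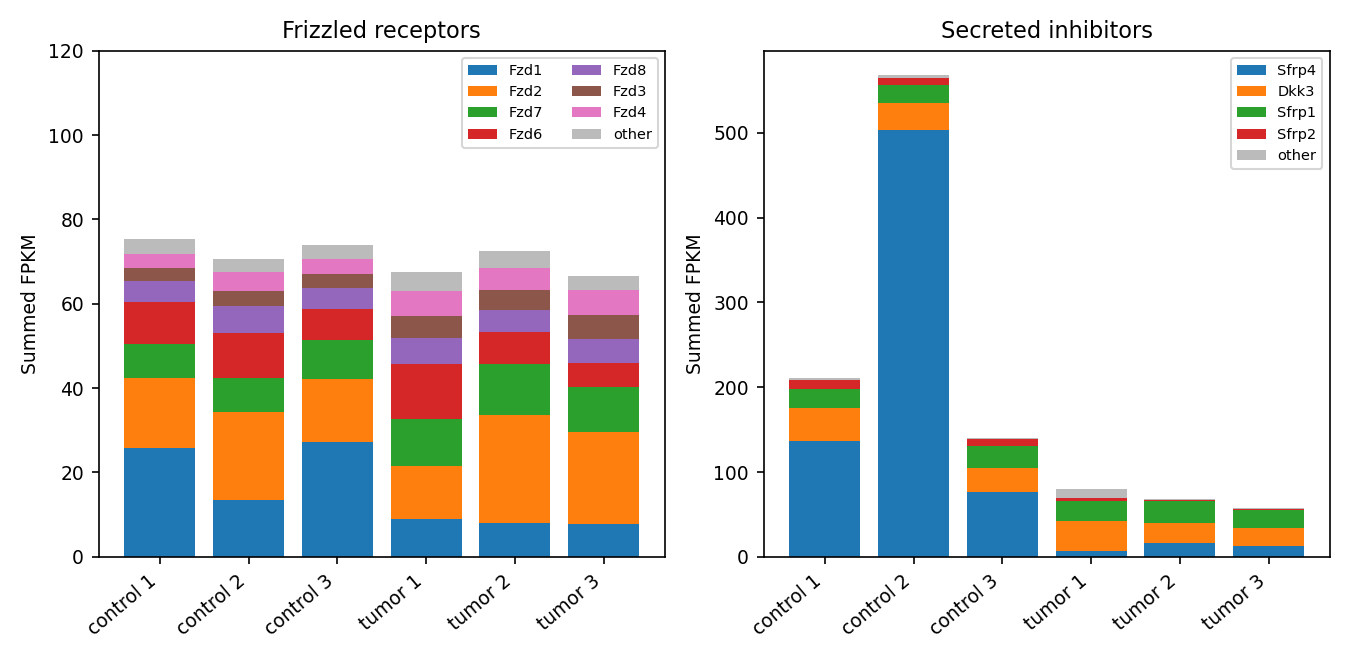
Stacked bars of deposited FPKM per library (x axis, 3 control and 3 tumor) for the 10 Frizzled receptors and the 10 secreted inhibitors (y axes, summed FPKM, different scales). The Frizzled total lies between 66.7 and 75.3 in all 6 libraries while the Fzd1 block is smaller in tumor; the inhibitor total follows Sfrp4, which reaches 503.4 FPKM in control replicate 2.

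Fzd1, a receptor induced around ovulation, was at 116.6, 58.5 and 120.6 CPM in control replicates 1, 2 and 3 and at 37.1, 34.5 and 34.0 CPM in tumor. The 3 tumor values lay close together, and control replicate 2 was again the lowest control. Its log2 fold change of -1.49 ± 0.28 had an adjusted p of 0.0398, a level 2.80-fold lower. Fzd3, a receptor best known from planar cell polarity, was at 39.7, 46.4 and 45.2 CPM in control and 63.0, 60.6 and 70.9 CPM in tumor. The groups did not overlap and the log2 fold change of 0.57 ± 0.10 had an adjusted p of 0.0385.

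Fzd4, at 13.1, 16.4 and 12.8 CPM in control and 20.4, 18.2 and 22.1 CPM in tumor, had a log2 fold change of 0.52 ± 0.15 and an adjusted p of 0.0820. It shares its deposited interval with another gene, Tmem135, and no source used here says whether reads were counted by strand. Fzd7 was at 39.2, 38.4 and 45.4 CPM in control and 50.8, 56.1 and 50.2 CPM in tumor, with 0.35 ± 0.10 and an adjusted p of 0.0805. Both passed with DESeq2, with adjusted p of 0.0426 for Fzd4 and 0.0458 for Fzd7. Fzd2 overlapped between the groups, at 42.7, 89.3 and 79.0 CPM in tumor and 61.7, 75.2 and 55.0 CPM in control. Fzd5, Fzd6, Fzd8, Fzd9 and Fzd10 overlapped as well, with log2 fold changes between -0.36 and 0.55.

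Of the LRP co-receptors, Lrp6 rose and Lrp5 did not pass. Lrp6 was at 69.0, 85.0 and 83.0 CPM in control and at 112.8, 130.9 and 126.5 CPM in tumor, with a log2 fold change of 0.64 ± 0.11 and an adjusted p of 0.0382. All 3 tumor libraries exceeded all 3 controls. Lrp5 was at 139.6, 128.4 and 131.2 CPM in control and 111.9, 146.3 and 153.6 CPM in tumor, with 0.04 ± 0.13 and an adjusted p of 0.853. Per length, Lrp5 remained the more abundant co-receptor, and the share of Lrp6 in their summed FPKM was 24.6% ± 2.86 in control and 33.3% ± 2.26 in tumor.

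Lrp6 and Fzd3 have long transcripts, with effective lengths of 9318 and 12688 bases beside a median of 2797 over the tested genes for which one could be derived. The 623 tested genes of at least 8000 bases, a limit chosen after the values were seen, lay at a median of 0.34 on the log2 scale, and 17.8% of them were called higher, beside 3.80% of all. With an offset for gene length in each library, Lrp6 had 0.39 with an adjusted p of 0.168 and Fzd3 had 0.25 with one of 0.298. In that fit 0.792% of all genes passed, and of the 7 genes Rspo2 and Sfrp2 did.

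Of 10 inhibitor genes, 7 were tested; Sfrp4 and Sfrp2 fell, none rose and 5 did not pass. Sfrp4, an inhibitor of the luteinizing ovary, was the most abundant of the 49 genes in control, at 136.2, 503.4 and 76.1 FPKM, and stood at 7.26, 16.0 and 12.3 FPKM in tumor. In CPM these were 242.3, 866.4 and 133.4 in control and 11.8, 26.8 and 21.2 in tumor. The lowest control library exceeded the highest tumor library, and the controls differed among themselves by more than the tumor libraries did. The difference was -4.38 ± 0.83 on the log2 scale (adjusted p of 0.0412), a level 20.8-fold lower; without control replicate 2 it was -3.20, and with no filter on low counts the adjusted p was 0.0543. The luteal markers Akr1c18 and Ptgfr also fell. Akr1c18 was at 200.1, 417.4 and 47.0 CPM in control and 2.96, 1.23 and 0.436 CPM in tumor. Ptgfr was at 30.0, 71.6 and 27.0 CPM in control and 5.56, 1.76 and 2.67 CPM in tumor. Among tumor libraries both were highest in replicate 1, where Sfrp4 was lowest. The other luteal markers, Cyp11a1, Hsd3b1, Lhcgr, Prlr, Scarb1 and Star, were lowest in tumor replicate 1, as Sfrp4 was. Among controls, Akr1c18, Ptgfr, Lhcgr, Prlr and Scarb1 were highest in replicate 2, as Sfrp4 was, while Cyp11a1, Hsd3b1 and Star were lowest there. Of the 8 luteal markers, Akr1c18 and Ptgfr fell and 6 did not pass, beside 3.91% of all tested genes called lower. In 6 of the 8, these 2 with Cyp11a1, Hsd3b1, Prlr and Star, all tumor libraries lay below all controls. Of all tested genes 18.4% lay wholly lower. The part of the luteal list in the result was not tested.

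Sfrp2 fell from 21.6, 15.9 and 17.3 CPM in control to 6.34, 3.04 and 2.56 CPM in tumor. Here the control libraries lay close together and tumor replicate 1 was the highest tumor library. The difference was -2.20 ± 0.38 on the log2 scale (adjusted p of 0.0374), a level 4.58-fold lower. Sfrp2 is also known as a gene of fibroblasts. The 6 stroma and fibroblast markers summed to between 3266.3 and 3951.8 CPM in control and between 2265.9 and 2657.4 CPM in tumor, with 2 of 6 called lower. The 5 smooth muscle markers summed to between 2488.6 and 2811.6 CPM in control and between 1293.5 and 2076.9 CPM in tumor, with 3 of 5 called lower (Des, Cnn1 and Tagln). Of all tested genes 3.91% were called lower. All 5 smooth muscle markers and 4 of the 6 stroma and fibroblast markers lay wholly lower in tumor, beside 18.4% of all tested genes. The part of either list in the levels of Sfrp2 and the other genes that fell was not tested.

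Sfrp1 did not pass and its groups overlapped, at 101.4, 94.0 and 113.2 CPM in control and 96.7, 106.6 and 91.9 CPM in tumor, with -0.06 ± 0.10. Dkk3, a DKK relative that does not share the LRP-binding role of Dkk1, was at 133.3, 105.3 and 96.5 CPM in control and 109.5, 78.2 and 72.9 CPM in tumor, with -0.36 ± 0.19 and an adjusted p of 0.256. Sfrp4 gave 69.1% ± 17.6 of the inhibitors' summed FPKM in control and 17.9% ± 7.69 in tumor. Their total was 306.6 ± 229.5 FPKM in control and 68.7 ± 11.1 in tumor; without Sfrp4 it was 68.1 ± 6.03 and 56.9 ± 14.1. Dkk2 was low throughout, at 1.35 to 5.51 CPM, with -0.61 ± 0.54. Dkk1, Dkk4 and Sfrp5 had at most 13 estimated counts in any library and were not tested.

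**Figure D3:**
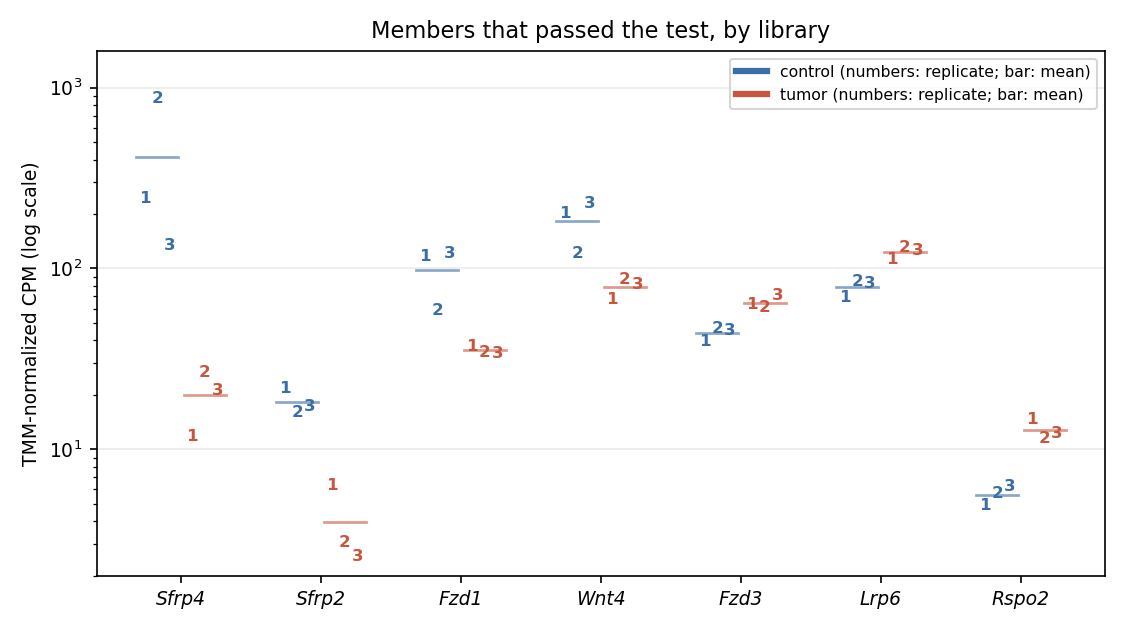
TMM-normalized CPM on a log scale (y axis) for the 7 genes that passed (x axis); digits mark replicates 1 to 3 of control (blue) and tumor (red), and bars the group means. No gene has overlapping groups, and control replicate 2 is the highest control for Sfrp4 and the lowest for Fzd1 and Wnt4.

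Of the 7 R-spondin and LGR receptor genes, 6 were tested, Rspo2 rose and 5 did not pass. Rspo2, an R-spondin known from oocytes of growing follicles, was at 4.86, 5.67 and 6.19 CPM in control and 14.5, 11.5 and 12.2 CPM in tumor. Every tumor library lay above every control library. The difference was 1.19 ± 0.19 on the log2 scale (adjusted p of 0.0355), a level 2.28-fold higher and the smallest p of the 49 genes. Of the 8 growing oocyte markers 5 also rose, beside 3.80% of all tested genes called higher. In 7 of the 8 all tumor libraries exceeded all control libraries, beside 19.8% of all tested genes. The 8 markers summed to 330.6, 350.8 and 440.6 CPM in control and to 655.8, 513.4 and 580.3 CPM in tumor. The part of the oocyte list in the level of Rspo2 was not tested. Rspo1 remained the most abundant R-spondin in FPKM in every library, and the share of Rspo2 in the R-spondins' summed FPKM was 9.11% ± 1.59 in control and 23.0% ± 9.07 in tumor.

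Rspo1, which acts beside Wnt4 in the female gonad, was at 25.8, 27.7 and 20.7 CPM in control and at 43.6, 16.3 and 12.5 CPM in tumor. Its log2 fold change of -0.04 ± 0.48 had an adjusted p of 0.971, and its tumor libraries lay on both sides of the controls. Rspo3 had a similar spread, at 15.3, 5.17 and 3.54 CPM in tumor and 10.0, 5.72 and 10.5 CPM in control, with -0.13 ± 0.58. Rspo4 had at most 6 counts in any library.

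Among the receptors, Lgr4 differed least, at 51.9, 55.3 and 53.7 CPM in control and 65.8, 47.6 and 52.7 CPM in tumor, with 0.05 ± 0.13. Lgr5, known as a stem cell marker of the ovarian surface, was at 18.6, 27.5 and 15.7 CPM in control and 17.98, 16.4 and 8.61 CPM in tumor, with -0.52 ± 0.33 and an adjusted p of 0.334. Lgr6 was at 22.2, 61.6 and 19.3 CPM in control and 42.4, 64.6 and 43.8 CPM in tumor, with 0.55 ± 0.48 and an adjusted p of 0.488. Control replicate 2 was the one control library at the level of the tumor libraries. Without it, where 14.2% of all genes passed, Lgr6 had 1.32 with an adjusted p of 0.0290. With any other single library left out Lgr6 did not pass, with an adjusted p of up to 0.790. Control replicate 2 also held the highest sum of theca markers, 2894.9 CPM beside 240.9 and 240.7 in the other controls. Most of that sum was the theca enzyme gene Cyp17a1. Cyp17a1 was at 14.3, 2669 and 22.1 CPM in control and 37.5, 1533 and 2273 CPM in tumor. Among controls, Insl3 was also highest in replicate 2, while Gli1, Hhip and Ptch1 were lowest there. Of the 5 theca markers Hhip and Ptch1 rose and 3 did not pass, beside 3.80% of all tested genes called higher. The part of the theca list in the level of Lgr6 was not tested.

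Of the 3 feedback genes none passed with edgeR or with DESeq2. Only 1, Znrf3, had an unadjusted p under 0.05 with edgeR, beside 31.0% of all tested genes. Axin2, a scaffold of the beta-catenin destruction complex and a common readout of the pathway because beta-catenin induces it, was at 67.8, 40.5 and 73.1 CPM in control and 61.1, 44.3 and 35.7 CPM in tumor. The groups overlapped: control replicate 2, the control with the least Wnt4, Wnt6 and Fzd1, also had the least Axin2. The difference was -0.36 ± 0.29 on the log2 scale (adjusted p of 0.436). Znrf3 was at 26.6, 24.3 and 31.5 CPM in control and 34.0, 33.8 and 33.6 CPM in tumor, with 0.30 ± 0.12, an unadjusted p of 0.0426 and an adjusted p of 0.148. Its effective length is 6969 bases, and with the length offset it had 0.10. Rnf43 was at 11.3, 11.98 and 9.80 CPM in control and 16.6, 6.77 and 5.34 CPM in tumor, with -0.20 ± 0.43 and an adjusted p of 0.790.

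Several genes were high in tumor replicate 1 and low in tumor replicates 2 and 3. Wnt16 was at 11.5, 0.533 and 0.163 CPM in tumor replicates 1, 2 and 3 and at 7.35, 11.2 and 2.69 CPM in control. Wnt11 was at 24.5, 2.61 and 1.69 CPM in tumor and 17.6, 11.0 and 4.58 CPM in control. Wnt7b was at 18.8, 2.29 and 0.600 CPM in tumor and 8.92, 21.4 and 5.49 CPM in control. In all 3 ligands control replicate 3 was the lowest control and the other two tumor libraries lay below it.

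Notum, the lipid-removing inhibitor, was at 12.1, 0.853 and 0.872 CPM in tumor and 2.86, 2.51 and 1.51 CPM in control, and Wif1 at 7.38, 0.213 and 0.218 CPM in tumor and 1.24, 0.963 and 0.269 CPM in control. Their log2 fold changes of 1.01 ± 1.10 and 1.65 ± 1.45 rested on that library and were -1.40 and -1.90 without it. Without tumor replicate 1, where 16.3% of all genes passed, Wnt16 (-4.32, adjusted p of 0.0352), Rnf43 (-0.86, adjusted p of 0.0453) and Rspo1 (-0.78, adjusted p of 0.0454) passed as lower beside the 7, while Wnt11 (-2.35) and Wnt7b (-3.04) had adjusted p of 0.0538 and 0.0574. With all libraries Wnt16, Wnt11 and Wnt7b had log2 fold changes of -0.80, -0.20 and -0.72 and standard errors above 1.

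The marker lists of oviduct, surface epithelium and adipocytes were also higher in tumor replicate 1 than in tumor replicates 2 and 3. Oviduct markers summed to 1827.9 CPM in tumor replicate 1 and to 115 and 30.5 CPM in replicates 2 and 3. Their sums in control replicates 1, 2 and 3 were 2073.8, 1994.2 and 435.4 CPM. The 7 surface epithelium markers summed to 580.1, 179.2 and 127.1 CPM in tumor and 565.5, 531.7 and 282.5 CPM in control, in the same order. With edgeR and the filter on low counts, 13 of these 14 markers were tested and none had even an unadjusted p under 0.05; DESeq2 called none. The other, Sprr1a, an oviduct gene at 0 in tumor replicate 2, was called lower without that filter. Without tumor replicate 1, 6 of the 7 oviduct and 4 of the 7 surface epithelium markers were called lower. In that fit 16.3% of all genes were called in either direction. Adipocyte markers, at 6972.7 CPM in tumor replicate 1, were at 607.4 and 2842.9 CPM in replicates 2 and 3 and between 421.5 and 592.6 CPM in control. None of the 7 adipocyte markers passed with edgeR, but 6 had an unadjusted p under 0.05, beside 31.0% of all tested genes. DESeq2 called 6 of them higher in tumor, beside 19.4% of all genes called in either direction. The part of these tissues in the levels of Wnt16, Wnt11, Wnt7b, Wnt7a, Rspo1, Rnf43, Wif1 and Notum was not tested.

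**Figure D4:**
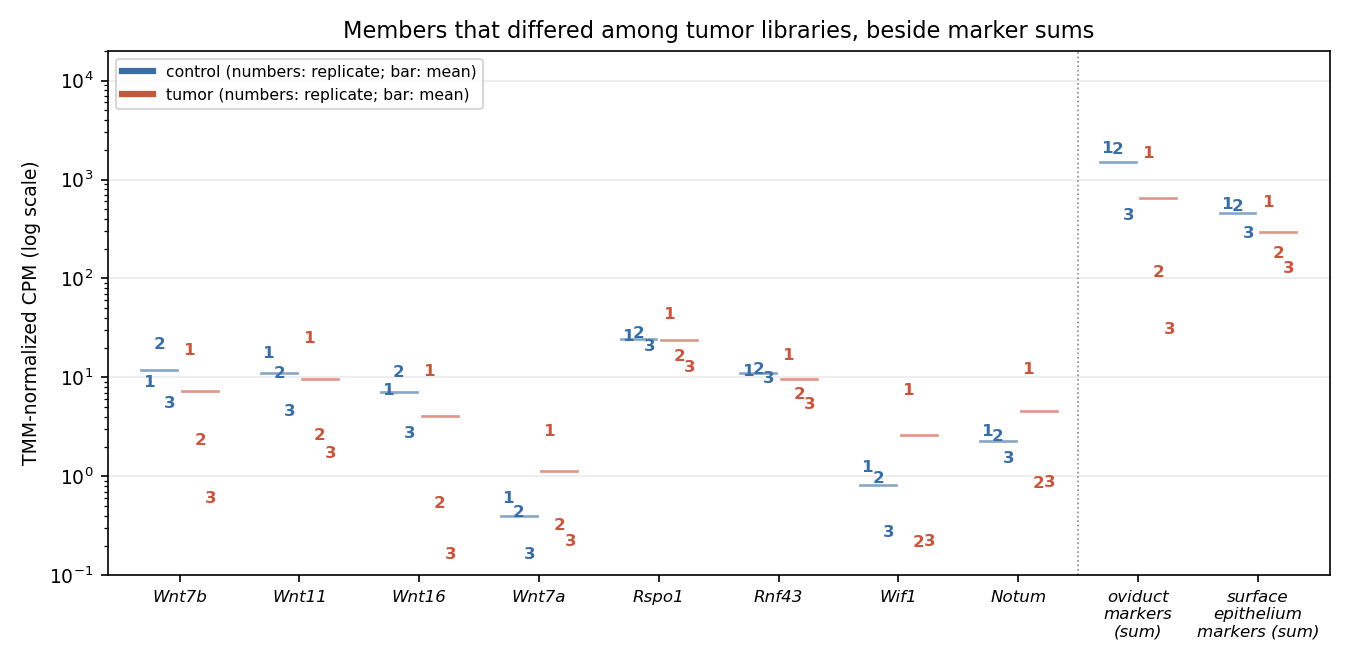
TMM-normalized CPM on a log scale (y axis) of 8 genes and, right of the dotted line, the summed CPM of the oviduct and surface epithelium marker lists; digits mark replicates of control (blue) and tumor (red), bars the group means. In each column tumor replicate 1 lies above tumor replicates 2 and 3. The 8 genes were picked for differing among tumor libraries, after their values were seen. Rspo3 and Wnt2b, among others not shown, had tumor replicate 1 highest as well.

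All 49 genes overlapped their position in the RefSeq table of the same build, GRCm38.p6. The 7 genes that passed lie at chr4:137277635-137299501 (Wnt4), chr5:4753839-4758216 (Fzd1), chr14:65172354-65262463 (Fzd3), chr6:134446476-134566913 (Lrp6), chr3:83765750-83789957 (Sfrp2), chr13:19623175-19632825 (Sfrp4) and chr15:43019968-43171594 (Rspo2). Among them only the deposited interval of Wnt4 overlapped those of other genes in the table (Gm42355, Zfp984, Gm13201, Zfp534 and Gm13035). Wnt4, Fzd1, Fzd3 and Sfrp4 had 1 deposited transcript each, and at least 96.9% of the Sfrp2 and 99.7% of the Lrp6 counts were given to 1 transcript in every library. Rspo2 had 5 transcripts, of which the most abundant took 51.5% to 79.8% of its counts in control and 65.2% to 88.9% in tumor.

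Promoters are shown for Wnt4, Fzd1 and Sfrp2, which all fell and have a sequence in the RefSeq table, and for Wnt11, whose promoter holds a TCF/LEF motif, the site through which beta-catenin acts. Each is the 250 bases before the annotated start, 5′ to 3′ on the gene's strand, from RefSeq on GRCm38.p6. Capitals mark the motif CTTTGAT, searched on both strands, where it reads ATCAAAG on the other.
Wnt4, chr4:137277385-137277634, plus strand: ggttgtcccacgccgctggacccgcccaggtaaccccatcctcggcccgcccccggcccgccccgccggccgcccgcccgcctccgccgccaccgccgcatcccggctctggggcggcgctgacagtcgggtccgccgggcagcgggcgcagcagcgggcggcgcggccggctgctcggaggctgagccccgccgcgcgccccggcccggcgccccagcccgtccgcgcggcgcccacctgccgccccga
Fzd1, chr5:4758217-4758466, minus strand: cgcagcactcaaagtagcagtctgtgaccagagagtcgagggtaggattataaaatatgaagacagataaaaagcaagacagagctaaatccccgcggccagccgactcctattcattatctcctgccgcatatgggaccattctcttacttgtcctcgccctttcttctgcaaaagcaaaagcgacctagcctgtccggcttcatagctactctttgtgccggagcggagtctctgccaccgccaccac
Sfrp2, chr3:83766071-83766320, plus strand: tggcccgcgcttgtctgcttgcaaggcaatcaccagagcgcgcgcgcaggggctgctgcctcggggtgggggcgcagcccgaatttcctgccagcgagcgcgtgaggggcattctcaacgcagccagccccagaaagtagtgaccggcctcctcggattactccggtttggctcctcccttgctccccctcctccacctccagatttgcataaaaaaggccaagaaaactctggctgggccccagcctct
Wnt11, chr7:98834862-98835111, plus strand: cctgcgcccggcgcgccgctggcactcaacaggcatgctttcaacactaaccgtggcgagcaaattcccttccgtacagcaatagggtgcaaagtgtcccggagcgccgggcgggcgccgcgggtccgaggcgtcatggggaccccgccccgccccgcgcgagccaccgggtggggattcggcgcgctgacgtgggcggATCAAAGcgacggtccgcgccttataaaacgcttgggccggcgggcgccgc

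The motif was present in 2 of the 35 promoters of the 31 genes matched, one each of Wnt11 and Wnt5b, or 5.71%, beside 3.73% of the 32851 promoters in the table, each of 300 bases including the first 50 of the transcript. The promoters of the genes that fell differed in base composition: G and C made up 85.2% of the Wnt4 sequence, 63.6% of Sfrp2 and 51.2% of Fzd1, and CpG dinucleotides numbered 44, 16 and 12. These are descriptions of letters, with no binding data behind them.

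In 5 lists of 78 genes outside the rule, 75 were tested, 8 were higher, 1 was lower and 66 did not pass; the 9 are 12% of those tested, beside 7.71% of all genes. In the list of secretion and co-receptor genes, Cthrc1, a secreted Wnt cofactor, fell (-1.58 ± 0.27, adjusted p of 0.0382) and the glypican gene Gpc3 rose (0.60 ± 0.12, adjusted p of 0.0413), with 13 of 15 not passed. In the cytoplasm 3 of 20 rose and none fell: Tnks and Tnks2, the tankyrases that mark axin for breakdown, by 1.33 ± 0.18 and 0.46 ± 0.10, and Amer1, an APC partner, by 0.71 ± 0.14. Tnks was at 16.6, 22.0 and 15.7 CPM in control and 44.2, 39.0 and 53.6 CPM in tumor.

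In the nucleus 3 of 13 rose and none fell: Pygo1, a beta-catenin coactivator, by 0.76 ± 0.09, the TCF factor gene Tcf7l2 by 0.53 ± 0.10 and the corepressor gene Tle4 by 0.91 ± 0.12. Pygo1 was at 19.1, 19.3 and 18.9 CPM in control and 33.9, 32.6 and 30.7 CPM in tumor. Of 17 genes of the planar polarity and calcium branch, the kinase gene Mapk8 rose by 0.51 ± 0.10 and 16 did not pass. None of 13 tested genes reported as targets passed with edgeR, and 3 had an unadjusted p under 0.05, beside 31.0% of all tested genes. The median log2 fold change of the 13 was -0.16. DESeq2 called 2 of them higher (Ccnd2 and Fst), beside 19.4% of all genes called in either direction. The adjusted p of the 7 genes named with rises in the cytoplasm, the nucleus and the planar list lay between 0.0289 and 0.0429. With the gene length offset only Tnks and Gpc3 of the 9 passed, so that none of the nuclear and planar genes did, and with the replicate block, or without any one of control replicates 1 and 3 and tumor replicates 2 and 3, none of the 9 passed.

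**Figure D5:**
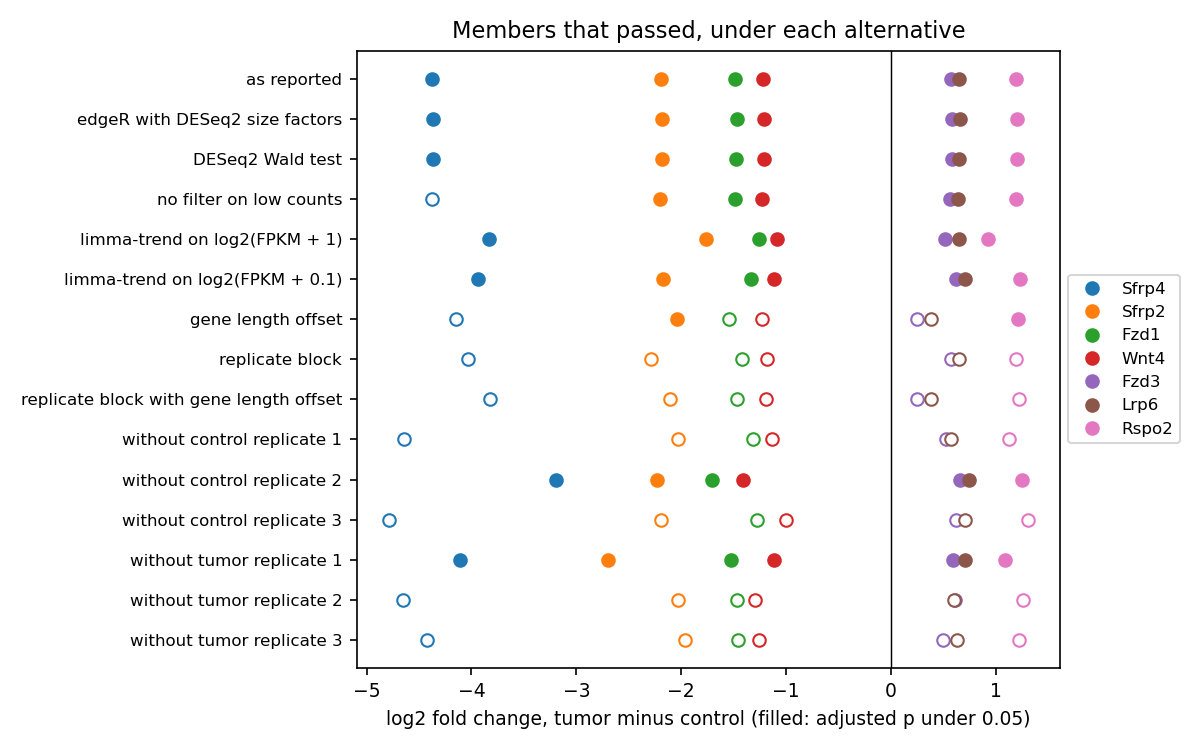
Log2 fold change of tumor minus control (x axis) of the 7 genes that passed, as reported and under 14 alternatives (y axis); filled points had an adjusted p under 0.05. No point crosses 0; Fzd3 and Lrp6 move toward 0 with the gene length offset, and all points are open in 6 alternatives.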

How the data were processed

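Ovarian RNA was read as single-end 50-base reads on an MGIseq500, per the labels' protocols. HISAT2 2.0.4, Bowtie2 2.2.5, RSEM 1.2.12 and GRCm38.p6 are named in the submitters' processing notes, with no role given. The authors deposited estimated counts, of which 39.2% of values above 0 are not whole, and FPKM and TPM per gene and transcript, per the file headers; TPM was not used. The authors' deposited table gives log2 fold changes with DESeq2 p-values and q-values. A further 18 columns of per-sample values were not used. No source used here states strand or RNA selection.

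Estimated counts were rounded, filtered with filterByExpr (15787 genes kept), scaled by TMM and compared with edgeR 4.0.16 (R 4.3.3; quasi-likelihood F test, robust, group only) with Benjamini-Hochberg adjustment over all genes, threshold 0.05. The SE is the log2 fold change over the square root of F. Positive values mean higher in tumor. Floors of 3 counts cover counting error only. No pair of libraries agreed within sampling noise (chi-square per degree of freedom at least 13.2). The fit was tested on simulated data. Effective length was derived from counts and FPKM, and the length alternative is a loess offset per library (span 0.4). Alternatives also included DESeq2 1.42.0 and limma 3.58.1 on log2 FPKM plus 1 or 0.1. Genes named in full are those that passed, and the 3 with the smallest p and the 3 most abundant of each role; others were chosen after their values were seen. The members and lists were chosen with earlier results of these data known.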

Additional observations from a re-analysis of the deposited data

How the results depend on the processing

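All 7 genes that passed kept their direction in all 14 alternatives; of the 38 genes tested, 20 kept their sign in all and 18 changed it in at least 1. All 7 passed with DESeq2 size factors and with limma on log2 FPKM plus either pseudocount, and 6 without a filter on low counts. DESeq2 called 3029 genes, with 5 higher and 5 lower among these genes. With the gene length offset 125 genes passed, 1 higher and 1 lower here.

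The labels do not say whether shared replicate numbers pair the libraries. Deviations of same-numbered libraries from their group means correlated at 0.24, -0.21 and 0.53. Deviations from a mean of 3 libraries constrain each other, so these values cannot decide whether the libraries are paired. With the replicate block 0 genes passed and 0 higher and 0 lower here, with adjusted p of the 7 genes between 0.0813 and 0.102 and all 7 at an unadjusted p under 0.05. With the block and the length offset together 5 genes passed, 0 here. Not every tumor library correlated best with its own number.

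Leaving out 1 library at a time gave 0 to 2605 genes passing in all, 0 to 5 higher and 0 to 7 lower here. Without tumor replicate 1, the tumor library highest in oviduct markers, 2605 passed. Without control replicate 2, the control library highest in Cyp17a1, 2274 passed.

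The direction changed with the length offset for Fzd5 (-0.0093; -0.019 with the block), Lgr4 (-0.058; -0.065), Lrp5 (-0.053; -0.071), Rspo1 (0.115) and Wnt5b (0.066; 0.070). It changed with limma for Sfrp1 (0.00133 and 0.00138 with pseudocounts 1 and 0.1), Wnt5b (0.013 and 0.017) and Notum (-0.012, pseudocount 0.1; -0.041 with the block). The cause was not tested.

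With 1 library left out, log2 fold changes that crossed 0 ranged, lowest to highest, for Dkk2 -0.958 to 0.029, Fzd10 -0.098 to 0.836, Fzd2 -0.072 to 0.397, Fzd6 -0.536 to 0.018, Fzd8 -0.012 to 0.187, Lgr4 -0.097 to 0.143, Lrp5 -0.044 to 0.173, Notum -1.404 to 1.497, Rnf43 -0.865 to 0.082, Rspo1 -0.782 to 0.275, Rspo3 -1.005 to 0.222, Sfrp1 -0.126 to 0.040, Wif1 -1.902 to 2.195, Wnt11 -2.354 to 0.341, Wnt2b -0.042 to 0.614, Wnt5b -0.137 to 0.083 and Wnt7b -3.038 to 0.076. None of these genes passed with all libraries. At these totals, values under 3 counts in a library lie within what a count of 0 allows.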
